A study of Mus musculus with 14 samples.

Results

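Promoter contacts of cranial neural crest cells (CNCCs) were compared between 2 stages, the E10.5 second pharyngeal arch (PA2) and the E12.5 pinna. The members are 4 of the 14 libraries of the series, 2 of E10.5 PA2 and 2 of E12.5 pinna, chosen by the location, stage and genotype in their labels. Both groups are wild type and hold cells that were sorted for the red fluorescent protein of Wnt1::Cre;ROSA-RFP embryos, in which the Wnt1 promoter drives Cre in the neural crest before it migrates. Embryos of both sexes were pooled, on a mixed C57Bl/6J;CD1 background, and the tissue of both stages was dissociated with trypsin. The other 10 libraries had no part in choosing contacts and are used as a check. They are 2 each of E10.5 CNCCs from the mandibular (Md), the maxillary (Mx) and the frontonasal process (FNP), of E10.5 PA2 CNCCs of Hoxa2EGFP/EGFP embryos, which lack Hoxa2, and of E14.5 pinna CNCCs, which were dissociated with papain. The Hoxa2EGFP/EGFP cells, called knockout below, were sorted for green and not for red fluorescent protein. PA2 and E12.5 pinna share their genotype and differ in both location and stage. E14.5 pinna differs from the other E10.5 libraries in location, stage and dissociation, and from the knockout libraries also in genotype and sort. The part of each cannot be told apart. The tables hold contact scores and no expression, so the cell type could not be checked against its markers.

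The pinna is the visible part of the external ear. Its mesenchyme comes largely from neural crest cells of the second arch, and mice without Hoxa2 lose it. Enhancers can lie far from the genes they act on, and the DNA in between loops to bring them near the promoter. Promoter capture Hi-C (PCHi-C) measures this: crosslinked chromatin is cut with HindIII, ends that lie close together are joined, and junctions that contain a promoter fragment, the bait, are fished out and sequenced.

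A pair is a bait with another HindIII fragment of the same chromosome, and a library lists a pair if its CHiCAGO score is 5 or more. This score grows as the p-value of a contact, set against what its distance would give, gets smaller; it is on a natural log scale and gives distant pairs less weight. The PA2 libraries listed 140559 and 145035 same-chromosome pairs and the E12.5 pinna libraries 134063 and 186248. Read counts are not in the tables, so that depth is unknown. E12.5 pinna replicate 2, whose name says that it was merged, stood apart. Of its listed pairs 62.7% joined different chromosomes, against 2.69% to 3.35% in the other 3 libraries, and 23.9% of its same-chromosome pairs spanned over 10 Mb, against 2.28% to 4.90%. The PA2 replicates shared 66194 pairs, 30.2% of all pairs that either listed, and the E12.5 pinna replicates 57483 pairs (21.9%). Between the stages this share was 26.9% and 27.2% with pinna replicate 1 and 20.4% with replicate 2. The pinna replicates therefore shared a smaller part of their pairs with each other than replicate 1 did with PA2. Gained and lost pairs below were counted only where both replicates of a stage showed them. The numbers of listed pairs of a bait count each library by itself.

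The 4 libraries listed 385977 pairs in all, of which 34037 (8.82%) were in every one and are called kept. A pair was gained if both pinna libraries and neither PA2 library listed it, and lost in the opposite case. There were 10560 gained pairs (2.74%) and 14095 lost pairs (3.65%). At least 1 gained pair was found at 25.6% of the 21912 baits in these libraries, at least 1 lost pair at 30.1%, and both at 11.2%. A gained pair can reflect a contact in more of the cells or a more frequent contact in each cell, and these cannot be told apart in bulk samples. With 2 libraries against 2, no exact permutation p can be below 0.333, so that the counts are a description.

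Whether the changes lasted was asked of the E14.5 pinna libraries. They listed 43.6% and 58.7% of the gained pairs and 29.1% and 34.4% of the lost pairs. The order was turned in all 8 other E10.5 libraries, which listed between 19.5% and 30.2% of the gained pairs and between 33.0% and 55.5% of the lost pairs. Kept pairs were listed at 84.1% and 90.8% in E14.5 pinna and at 72.4% to 92.2% in the other libraries. The share of gained pairs minus the share of lost pairs was 19.4 ± 6.94 percentage points in E14.5 pinna (SD, n = 2) and -19.9 ± 4.19 in the E10.5 libraries (SD, n = 8). The difference of 39.2 points was larger than the spread between libraries (exact permutation test, two-sided, p = 0.0222, the smallest that 45 groupings allow). This test takes single libraries as exchangeable, although they are 2 replicates of each group, so that it does not measure the spread between groups. The difference was 39.7 points when gained and lost pairs were compared within classes of distance. For baits in DNA with a GC content at or above the median it was 38.02 points (p = 0.0222 each by the same exact test). Without E12.5 pinna replicate 2 it was 19.7 points, without replicate 1 16.0 points, and without PA2 replicate 1 or 2 25.9 or 25.4 points, each with an exact permutation p of 0.0222. In these 4 cases the share of gained minus lost pairs had the same sign in both sets of libraries, at 41.8 and 15.9 points without PA2 replicate 1 and -19.5 and -39.2 points without pinna replicate 2. Of the gained pairs, 2992 were listed in none of the 8 other E10.5 libraries, and 722 of these in both E14.5 pinna libraries. Of the lost pairs, 828 were listed in all 8 other E10.5 libraries, and 306 of these in neither E14.5 pinna library.

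**Figure D1:**
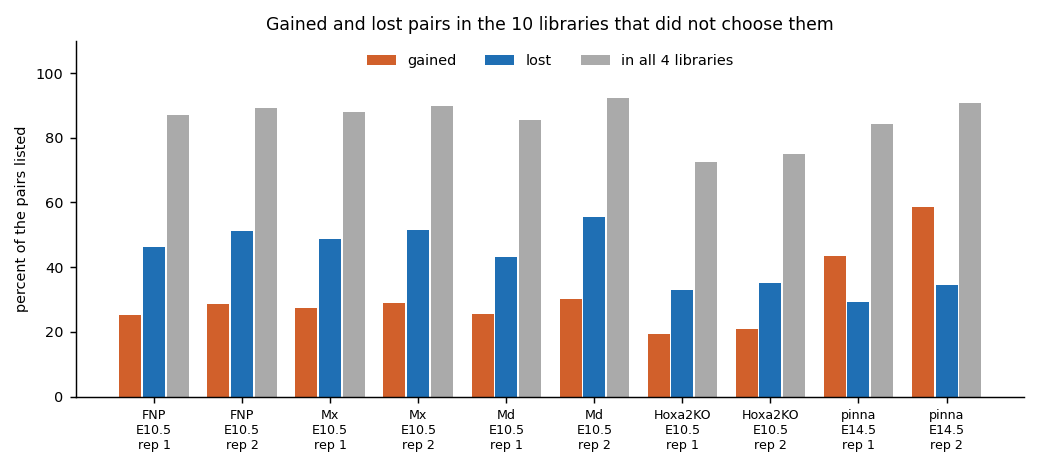
Share of the gained, lost and kept pairs (vertical axis, percent) listed by each of the 10 libraries that did not choose them (horizontal axis, 2 replicates a group). Lost pairs stand above gained pairs in all 8 E10.5 libraries, and gained pairs stand above lost pairs in both E14.5 pinna libraries, at 43.6% against 29.1% and 58.7% against 34.4%.

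Gained pairs spanned longer distances than lost pairs. The median distance between the midpoints of bait and other end was 370 kb for gained, 262 kb for lost and 247 kb for kept pairs. Below 0.1 Mb lay 8.01% of the gained, 18.6% of the lost and 19.8% of the kept pairs. Seen by distance class, 2.80% of the pairs below 0.1 Mb were gained and 8.69% lost. Between 2 and 10 Mb, 1.66% were gained and 0.988% lost. The bait of a gained pair also lay in DNA of lower GC content, with a median of 43.7% over 1 Mb against 45.1% for lost and 44.8% for kept pairs. Another promoter bait was the other end of 12.2% of gained, 15.7% of lost and 19.7% of kept pairs.

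In these features E12.5 pinna replicate 2 stood apart. E12.5 pinna replicate 2 had 6.42% of its pairs below 0.1 Mb, a median distance of 742 kb and a median GC content of 43.7%. PA2 had 13.2% and 12.9%, 341 and 358 kb, and 44.6% in both replicates. E12.5 pinna replicate 1 had 12.9%, 333 kb and 44.5%. Its values lay near those of PA2. When E12.5 pinna replicate 2 was left out, gained pairs had a median distance of 448 kb and lost pairs of 285 kb. Without E12.5 pinna replicate 1 the medians were 2379 kb for gained and 237 kb for lost pairs. Without PA2 replicate 1 the order was turned, at 350 kb for gained and 509 kb for lost pairs, and without PA2 replicate 2 too, at 357 and 460 kb. The part of the library differences in the distances was not tested.

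**Figure D2:**
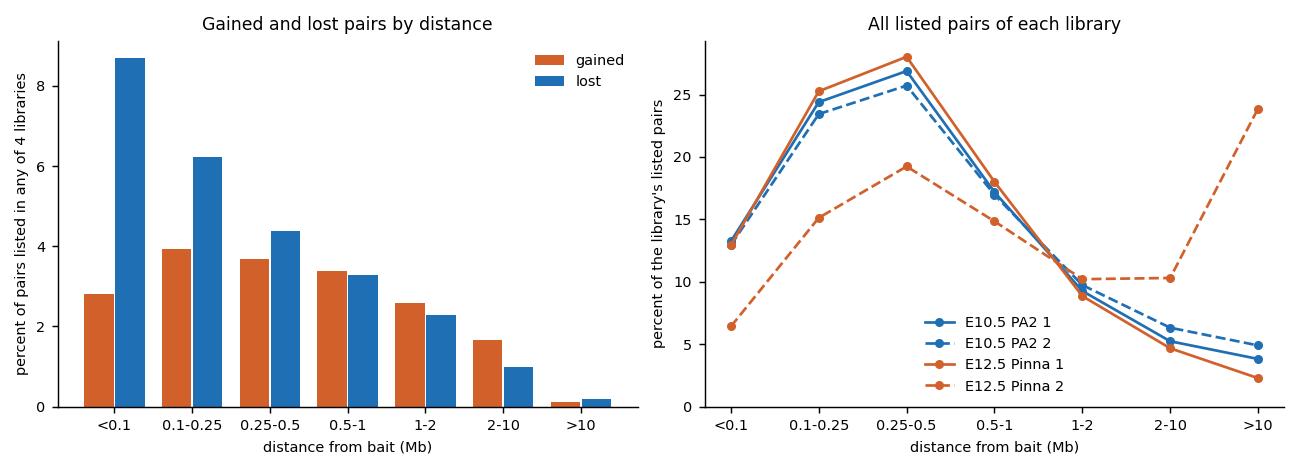
Left, gained (orange) and lost (blue) pairs as a percentage of all pairs listed in any of the 4 libraries, by distance between bait and other end (Mb). Lost pairs make up 8.69% and gained pairs 2.80% below 0.1 Mb. Right, share of the listed pairs of each library (percent) in the same classes. E12.5 pinna replicate 2 lies below the other 3 libraries up to 1 Mb and reaches 23.9% above 10 Mb.

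The number of listed pairs of each bait was then compared with limma, on log2 of the number plus 1, with the spread estimated over all 7 groups. Of 19625 baits tested, 103 (0.525%) passed an adjusted p of 0.05. Contacts rose in the pinna at 28 baits (0.143%) and fell at 75 (0.382%). Without centring the libraries, which moved the median difference of all baits from -0.02 to 0.21, it rose at 34 and fell at 35.

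The largest rise was at Gm23364, a miRNA gene model (chr6:94822448-94826203). Its bait listed 2 and 1 pairs in PA2 and 48 and 43 in E12.5 pinna, with 31 and 38 in E14.5 pinna and at most 3 in the other E10.5 libraries. The log2 difference was 4.02 ± 0.60 (SE, limma adjusted p = 0.00145). The nearest coding start site, 124 kb away, is that of Lrig1, a transmembrane regulator of growth factor receptors. The Lrig1 bait itself listed 19 and 13 pairs in PA2 and 58 and 48 in E12.5 pinna, with 50 and 62 in E14.5 pinna. Its difference of 1.46 did not pass the test (adjusted p = 0.0764). Counting only pairs within 2 Mb it was 1.71 and passed (adjusted p = 0.0104). The 28 gained pairs of Gm23364 and the 23 of Lrig1 lay on both sides of the baits and shared 9 fragments. All gained pairs of Gm23364 spanned 10.2 to 284 kb.

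A like pattern was seen around Frmd6, which encodes a FERM domain protein of the Hippo pathway. Its bait (chr12:70824520-70827716) listed 6 and 13 pairs in PA2, 50 and 41 in E12.5 pinna and 39 and 58 in E14.5 pinna, and rose by 2.00 ± 0.39 on the log2 scale (SE, limma adjusted p = 0.0148). Its 24 gained pairs all lay on the side of lower coordinates, at 114 to 594 kb. The bait of Gm47290, an snRNA gene model 153 kb away on that side, went from 2 and 1 pairs to 37 and 36 (log2 difference 3.71 ± 0.54, SE, adjusted p = 0.00117). E14.5 pinna listed 25 and 39, and the 8 other E10.5 libraries between 2 and 11. The Gm47290 and Frmd6 baits shared 3 of their gained fragments.

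Genes of WNT signalling stood at 2 further places. Wnt11, a WNT ligand that acts without beta-catenin in many tissues, had the most gained pairs of all baits, 32, and no lost pair. Its bait (chr7:98834699-98840472) listed 14 and 24 pairs in PA2 and 98 and 65 in E12.5 pinna. E14.5 pinna listed 78 and 102 pairs, and the other E10.5 libraries 16 to 40 (median 25). All 4 pinna libraries were above all 10 E10.5 libraries. The log2 difference was 1.84 ± 0.36 (SE, limma adjusted p = 0.0148), and the gained pairs lay at 60.1 to 365 kb on both sides, 16 of them at lower coordinates. Of these 32 pairs, 29 and 31 were listed in the E14.5 libraries and 4 to 12 in the other E10.5 libraries. The second place was Gm22421, an snRNA gene model whose bait centre lies 2.40 kb from the start site of Dkk2, a secreted WNT antagonist. It listed 0 and 2 pairs in PA2, 21 and 33 in E12.5 pinna and 22 and 22 in E14.5 pinna (log2 difference 3.76 ± 0.59, SE, adjusted p = 0.00231). Its 10 gained pairs all lay on the side of lower coordinates, at 262 to 486 kb.

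Twist2, a bHLH transcription factor of the dermal mesenchyme, listed 10 and 6 pairs in PA2 (chr1:91798516-91803624) and 34 and 45 in E12.5 pinna. E14.5 pinna listed 36 and 41, and the other E10.5 libraries 1 to 10 (median 3.5). The groups did not overlap. Its contacts rose by 1.97 ± 0.42 (log2, SE, limma adjusted p = 0.0290), with 18 gained pairs, no lost pair and distances from 45.4 to 380 kb. The baits of Gm1968, 104 kb from that of the NOTCH target Hes1, and of Fibin, which encodes a secreted factor, behaved likewise. Gm1968 went from 4 and 3 pairs to 35 and 30 and Fibin from 3 and 2 to 20 and 30 (log2 differences 2.68 and 2.66). The Hes1 bait had 17 gained pairs and 1 lost pair, and 45 and 33 pairs in PA2 against 64 and 83 in E12.5 pinna (log2 difference 0.68, adjusted p = 0.403). Arhgap24 had no listed pair in PA2 and 15 and 8 in E12.5 pinna (3.36 ± 0.69, SE, adjusted p = 0.0213). On chromosome 18, the baits of 2700046A07Rik and Spink13, 17.0 kb apart, had 14 and 21 gained pairs and also rose, though not without PA2 replicate 1 (adjusted p = 0.0594 and 0.161), and Spink13 also not without PA2 replicate 2 (0.209) or pinna replicate 1 (0.0922). Gm1968, Hes1 and Fibin were chosen after their values were seen.

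**Figure D3:**
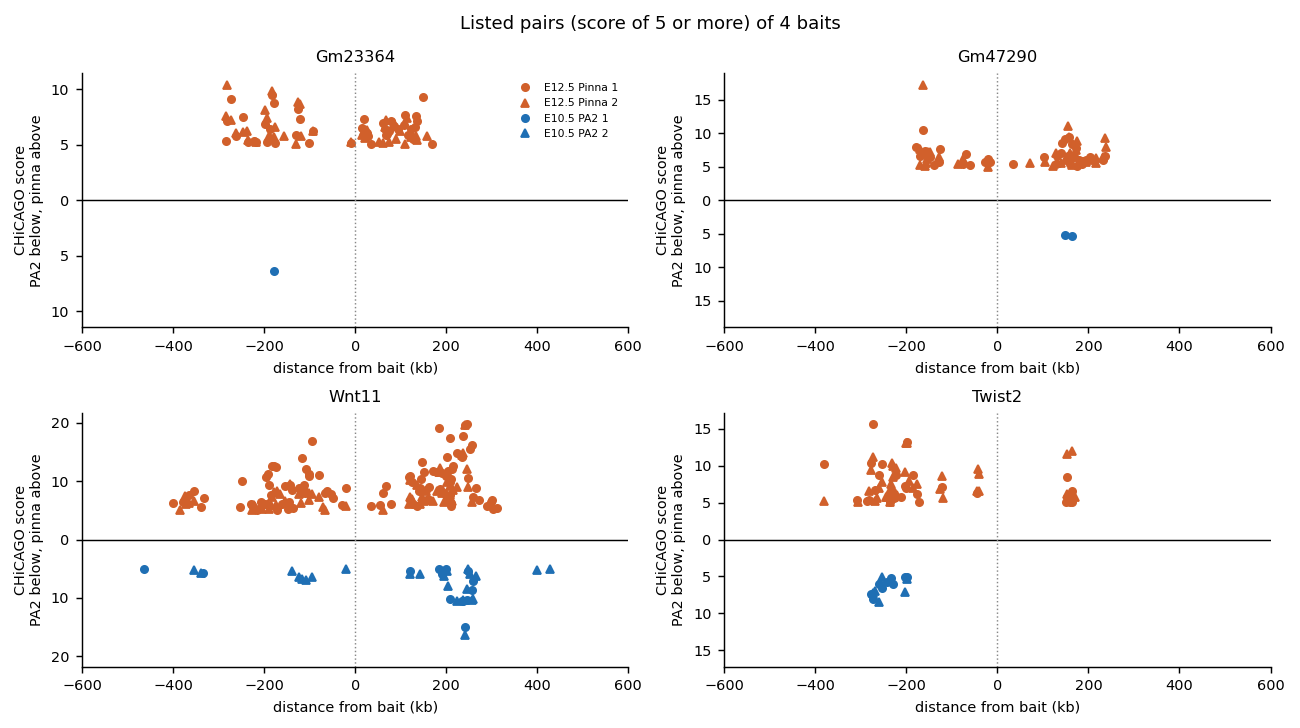
CHiCAGO scores (vertical axis, no unit) of the listed pairs of 4 baits against the signed distance of the other end from the bait in kb (horizontal axis). The E12.5 pinna libraries are drawn upwards in orange and the PA2 libraries downwards in blue, with circles for replicate 1 and triangles for replicate 2. Gm23364, Gm47290, Wnt11 and Twist2 have 28, 19, 32 and 18 gained pairs.

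Leaving out 1 library at a time moved these counts. Without PA2 replicate 1, 15 baits passed, without PA2 replicate 2 26, and without E12.5 pinna replicate 1 382. Without E12.5 pinna replicate 2, 72 baits passed, 38 of them among the 103. Wnt11 and Frmd6 lost their calls without PA2 replicate 1 (adjusted p = 0.263 and 0.298) and without E12.5 pinna replicate 1 (0.0821 and 0.0727), and Twist2 in each of the 4 cases (0.0673 to 0.306). Gm22421 lost its call without PA2 replicate 1 (0.104), Fibin without either PA2 library or pinna replicate 2 (0.119 to 0.207), and Arhgap24 without either PA2 library or pinna replicate 1 (0.0959 to 0.162). Gm23364 and Gm47290 passed in all 4 cases. Differences also followed base composition. In the fifth of the baits with the lowest GC content over 1 Mb the median log2 difference was 0.18, with 7 baits higher in pinna and 2 lower. In the fifth with the highest it was -0.23, with 4 higher and 28 lower. After each library was freed of its GC trend, 93 baits passed, 80 of them among the 103, with 31 higher and 62 lower.

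The largest fall was at the bait that holds the start sites of Cd3eap, an RNA polymerase I subunit, Ercc1, a DNA repair endonuclease subunit, and Ppp1r13l (chr7:19351932-19363671). It listed 72 and 85 pairs in PA2, 2 and 8 in E12.5 pinna and 4 and 12 in E14.5 pinna. The other E10.5 libraries listed 14 to 112 (median 31), so that all 4 pinna libraries were lowest. The log2 difference was -4.16 ± 0.52 (SE, limma adjusted p = 0.000237), with 47 lost pairs at 15.6 to 370 kb. Ubap2 went from 55 and 108 pairs to 5 and 7 (-3.72 ± 0.43, SE, adjusted p = 0.000105) and had 41 lost pairs. The knockout libraries listed 9 and 16 pairs of this bait and FNP replicate 1 16, and the other 5 E10.5 libraries 63 or more. Peg3/Usp29, an imprinted locus, listed 21 and 23 pairs in the knockout libraries. It went from 45 and 79 in PA2 to 17 and 18 in E12.5 pinna (-1.94 ± 0.31, SE, limma adjusted p = 0.00275). Without PA2 replicate 2 it did not pass (adjusted p = 0.128), and the Cd3eap and Ubap2 baits passed whichever of the 4 libraries was left out.

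Some falls were not carried on to both E14.5 libraries. Adam17, a protease that sheds membrane proteins, had the most lost pairs, 49, with 76 and 115 pairs in PA2, 17 and 12 in E12.5 pinna and 69 and 128 in E14.5 pinna (log2 difference -2.85 ± 0.36, SE, adjusted p = 0.000237). The Hoxa2 knockout libraries listed 9 and 19 pairs of this bait and the 6 libraries of FNP, Mx and Md 97 or more. Hnrnpc, with 23 lost pairs, did not pass the test, at 76 and 79 pairs in PA2 and 38 and 43 in E12.5 pinna (adjusted p = 0.0857). Cfap77, Taf8 and the importin gene Kpnb1 went from 8 to 16 pairs in PA2 to at most 1 in E12.5 pinna (log2 differences -3.79, -3.54 and -3.50), and the E14.5 pinna libraries listed 0 and 11, 5 and 7, and 1 and 7. For Cfap77 and Kpnb1 the low number was thus also seen in E14.5 pinna replicate 1. The knockout libraries listed 0 and 0 pairs of the Taf8 bait, 14 and 13 of Cfap77 and 10 and 15 of Kpnb1. Gapdh, the glycolytic enzyme, went from 15 and 13 pairs to 1 and 2 (-2.84 ± 0.45, SE, limma adjusted p = 0.00231). Its fall was carried on to both E14.5 pinna libraries, with 3 and 5 pairs, and the knockout libraries listed 4 and 8. Without PA2 replicate 1, Gapdh, Cfap77 and Taf8 did not pass (adjusted p = 0.0729, 0.0621 and 0.0518), nor did Cfap77 without PA2 replicate 2 (0.101) or pinna replicate 2 (0.0658).

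Among the other baits that fell were 4 genes of DNA replication and mitosis, singled out after their values were seen. Pole, the catalytic subunit of DNA polymerase epsilon, listed 40 and 52 pairs in PA2 and 18 and 20 in E12.5 pinna, with 27 and 29 in E14.5 pinna and 17 and 23 in the knockout. Clspn, of the replication checkpoint, went from 37 and 47 to 15 and 11, with 14 and 20 in the knockout. Atad2 went from 17 and 13 to 3 and 3, with 11 and 13 in the knockout. The bait of Acoxl/Bub1 holds the start of a spindle checkpoint kinase. It went from 23 and 18 to 4 and 3, with 6 and 12 in the knockout. The log2 differences were -1.45, -1.85, -2.21 and -2.48, and none passed without PA2 replicate 1 or pinna replicate 2 (adjusted p = 0.0542 to 0.177). A second Pole bait, shared with Pxmp2, listed 8 and 0 pairs in PA2 and 0 and 0 in E12.5 pinna (limma adjusted p = 0.373). Rrm1, looked at with these genes, listed 33 and 26 pairs in PA2 and 13 and 52 in E12.5 pinna. It did not pass over all distances (limma adjusted p = 0.732) and did within 2 Mb (0.00699). No bait of the fixed list of cell cycle and growth genes passed the test among 32. The 46 gained and 53 lost pairs of that list were 4.14% and 4.77% of its pairs.

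**Figure D4:**
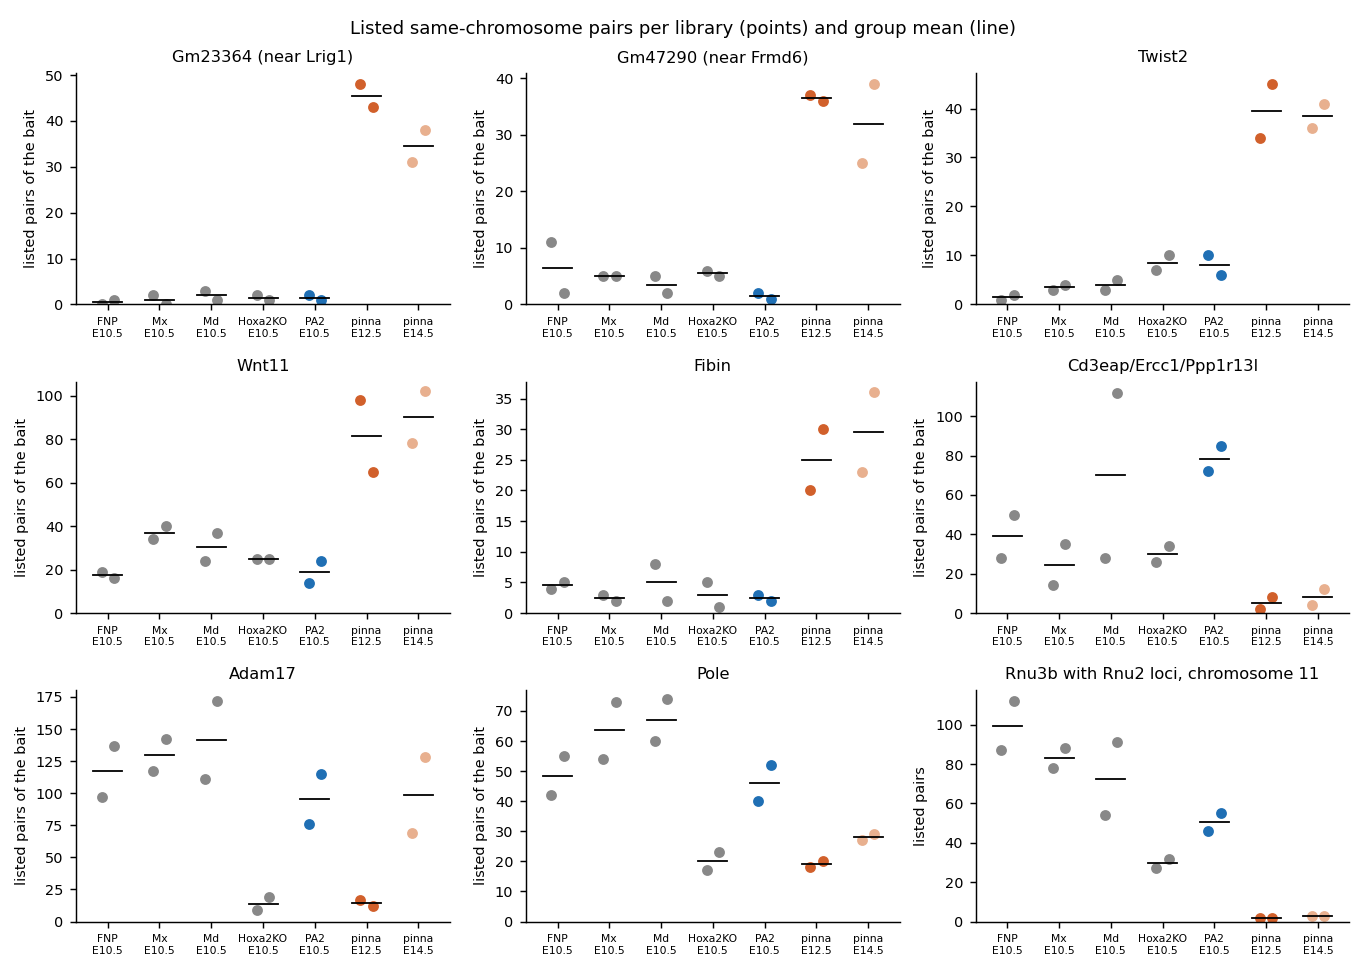
Number of listed pairs (vertical axis) of 8 baits, and of the pairs between the Rnu3b and Rnu2 loci of chromosome 11, in the 14 libraries (horizontal axis, by group). Points are libraries and lines are means of 2. The pinna libraries are highest for Gm23364, Gm47290, Twist2, Wnt11 and Fibin and lowest for the Cd3eap bait and the Rnu loci, and E14.5 pinna lies near PA2 for Adam17.

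The scores of single pairs were compared in the same way, on asinh of the score, for pairs that at least 4 of the 14 libraries listed. Of 159013 pairs, 2150 (1.35%) passed, 1043 higher in E12.5 pinna (0.656%) and 1107 higher in PA2 (0.696%). Of these, 1027 were gained and 1078 were lost pairs, in which the scores of the 2 stages cannot overlap by definition. The call rests on giving unlisted pairs a score of 0. With unlisted pairs set to 5, the listing threshold, 4 pairs passed, and the single pairs below are therefore described by their scores alone, with no test. They are the 10 largest differences in each direction among the pairs that passed, and a pair listed in the 4 pinna libraries alone entered the comparison only through the groups where it was high.

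The largest gain was between the Meis2 promoter (bait chr2:116056960-116067701) and a fragment 536 kb away (chr2:115526054-115527049). MEIS proteins are TALE homeodomain factors that bind DNA with HOX and PBX proteins. The pair scored 28.4 and 30.4 in E12.5 pinna, 11.2 and 23.5 in E14.5 pinna and was not listed in any of the 10 E10.5 libraries. The next fragment scored 17.2 and 22.6. Meis1 had the same pattern with a fragment 258 kb away (chr11:18754154-18756014), at 14.4 and 24.6 in E12.5 pinna, 7.13 and 17.9 in E14.5 pinna and none at E10.5. The same listing was seen for Hmga2, an architectural chromatin protein, over 307 kb (16.2 and 20.3), and the homeobox gene Zfhx3 over 758 kb (15.7 and 29.1). A second Zfhx3 pair over 768 kb scored 22.2 and 29.2, and was listed at E10.5 in the knockout libraries, at 8.21 and 6.88. Zfhx4 reached a fragment 2.08 Mb away with 18.6 and 36.3, and 4 of the 8 other E10.5 libraries listed it. The other 3 of the 10 largest gains, at Gm10748, Pcdh20 and Mzt2, were also listed in at least 6 of the 8 other E10.5 libraries.

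Both Meis1 and Meis2 had further gained pairs. Meis1 had 14 at its main bait and no lost pair, and listed 11 and 8 pairs in PA2, 22 and 40 in E12.5 pinna and 23 and 42 in E14.5 pinna (log2 difference 1.34 ± 0.38, SE, adjusted p = 0.132). Within 2 Mb the rise passed the test (adjusted p = 0.0401). A second Meis1 bait (chr11:19017037-19021316) had 9 gained pairs and no lost pair and listed 12 and 12 pairs in PA2 and 13 and 32 in E12.5 pinna (log2 difference 0.50, adjusted p = 0.658, and 0.443 within 2 Mb). Meis2 had 7 gained pairs, at 533 to 757 kb, and 1 lost pair, with 9 and 8 pairs in PA2 and 17 and 23 in E12.5 pinna (log2 difference 0.91, adjusted p = 0.395).

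The first 300 bases of the contacted fragments that both E12.5 pinna libraries and no E10.5 library listed are printed here, since they are the sites of the largest gains of single pairs. They are of the plus strand of GRCm38 and start at the HindIII cut. Capitals mark TGACAG, a MEIS motif, and TGATNNAT, a HOX-PBX motif, on either strand; 18.99% and 17.0% of the 296573 contacted fragments of that length or more hold them in their first 300 bases. The Meis1 fragment holds 1 MEIS motif in this window, and the other windows hold neither motif.
Meis2 contact chr2:115526054-115526353: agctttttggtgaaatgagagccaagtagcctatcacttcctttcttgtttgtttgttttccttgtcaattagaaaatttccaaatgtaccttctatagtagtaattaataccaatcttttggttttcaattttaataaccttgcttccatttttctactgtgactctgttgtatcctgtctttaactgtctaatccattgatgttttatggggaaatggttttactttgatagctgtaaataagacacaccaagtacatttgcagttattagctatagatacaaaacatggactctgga
Meis2 contact chr2:115527050-115527349: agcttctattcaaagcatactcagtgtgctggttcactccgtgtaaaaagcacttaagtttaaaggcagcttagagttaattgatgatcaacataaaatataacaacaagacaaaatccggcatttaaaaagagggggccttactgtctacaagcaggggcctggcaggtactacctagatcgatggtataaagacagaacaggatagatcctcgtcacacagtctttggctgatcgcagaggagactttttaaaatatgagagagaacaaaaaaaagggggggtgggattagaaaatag
Meis1 contact chr11:18754154-18754453: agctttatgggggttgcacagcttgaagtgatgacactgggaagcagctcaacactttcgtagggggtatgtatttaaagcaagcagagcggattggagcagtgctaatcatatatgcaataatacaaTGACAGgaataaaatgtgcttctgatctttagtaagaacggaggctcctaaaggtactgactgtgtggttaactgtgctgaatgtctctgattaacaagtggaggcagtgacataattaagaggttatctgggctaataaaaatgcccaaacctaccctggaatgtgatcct
Hmga2 contact chr10:120781222-120781521: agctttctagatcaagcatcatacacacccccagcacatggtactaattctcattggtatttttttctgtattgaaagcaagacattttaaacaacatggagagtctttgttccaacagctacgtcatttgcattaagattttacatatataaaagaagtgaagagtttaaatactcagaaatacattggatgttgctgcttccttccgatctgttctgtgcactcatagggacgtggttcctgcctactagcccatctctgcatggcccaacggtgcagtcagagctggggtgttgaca
Zfhx3 contact chr8:107953388-107953687: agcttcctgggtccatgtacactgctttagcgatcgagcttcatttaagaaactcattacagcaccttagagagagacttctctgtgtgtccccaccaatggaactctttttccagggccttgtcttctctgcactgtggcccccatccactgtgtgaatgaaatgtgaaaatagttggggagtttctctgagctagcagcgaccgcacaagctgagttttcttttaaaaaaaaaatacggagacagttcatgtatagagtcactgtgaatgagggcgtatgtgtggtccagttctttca

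The promoter of Twist2, whose bait gained 18 pairs, is given for the same motifs, from 250 bases before to 50 after its start (RefSeq, GRCm38.p6, plus strand). It holds 1 MEIS motif, as 19.2% of the 32851 promoters of this length do, and no HOX-PBX motif (8.85% of promoters).
Twist2 promoter chr1:91801211-91801510: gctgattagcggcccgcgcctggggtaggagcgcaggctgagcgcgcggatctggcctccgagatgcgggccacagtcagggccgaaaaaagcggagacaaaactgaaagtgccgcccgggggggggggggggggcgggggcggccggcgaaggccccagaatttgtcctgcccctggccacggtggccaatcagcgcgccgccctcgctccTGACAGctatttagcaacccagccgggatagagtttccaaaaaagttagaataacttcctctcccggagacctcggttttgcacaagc

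The largest losses of single pairs included 4 that joined 2 places on chromosome 11 about 14 Mb apart. One holds the genes of U1 and U3 RNA (Rnu1a1, Rnu3b1, Rnu3b2 and Rnu3b3) beside Tex14, the other the U2 gene Rnu2-10. U1 and U2 belong to the spliceosome, and U3 acts in ribosomal RNA processing. The strongest of these pairs, between the Tex14 bait and chr11:101655162-101656128, scored 46.1 and 27.7 in PA2 and was listed in no pinna library. It was not listed in the knockout libraries either, and the 6 libraries of FNP, Mx and Md gave it 14.4 to 43.5. Rnu2-10 with the Tex14 fragment scored 16.0 and 27.3 in PA2 and 23.7 to 40.8 in all 8 other E10.5 libraries, and no pinna library listed it.

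This pattern held for the whole of both loci. Between chr11:87372867-87521368 and chr11:101608238-101708238, each 50 kb wider than its genes, the PA2 libraries listed 46 and 55 pairs and the E12.5 pinna libraries 2 and 2. E14.5 pinna listed 3 and 3, and the 8 other E10.5 libraries 27 to 112. All 4 pinna libraries lay below all 10 E10.5 libraries, 20 pairs were lost and none gained. The loci were singled out after these values were seen, and no test was made of their sum. Pairs over 10 Mb made up 2.28% and 23.9% of the same-chromosome pairs in E12.5 pinna, 3.81% and 6.85% in E14.5 pinna, and 2.20% and 3.32% in the knockout libraries, which listed 27 and 32 pairs between the loci. The first 300 bases of the strongest lost contact of Tex14, next to the Rnu2-10 bait, are shown with their letters as above and hold neither motif.
Tex14 contact chr11:101655162-101655461: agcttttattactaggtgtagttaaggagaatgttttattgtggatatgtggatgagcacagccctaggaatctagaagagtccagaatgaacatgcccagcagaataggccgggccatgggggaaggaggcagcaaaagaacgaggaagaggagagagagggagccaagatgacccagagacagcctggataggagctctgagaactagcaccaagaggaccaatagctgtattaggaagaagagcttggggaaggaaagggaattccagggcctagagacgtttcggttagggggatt

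The other large losses were nearer. Olfr221 lost fragments at the promoters of Arhgef40 and of Tmem253/Zfp219, with scores between 25.2 and 46.3 in PA2, and Cfap77 those of Barhl1 and of Ddx31/Gtf3c4, with 24.5 to 36.7. Abt1 lost a fragment 1499 kb away, with 23.7 and 31.5 in PA2 and 13.9 and 16.9 in E14.5 pinna, and Taf8 one at Guca1b. These 6 pairs returned in at least 1 E14.5 library, with scores of 13.1 to 17.8. The knockout libraries, also of E10.5 PA2, did not list those of Olfr221 and Taf8. They gave those of Cfap77 and Abt1 scores of 8.29 to 24.3.

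Hoxa2 was examined by itself, as the gene that second arch and pinna identity depends on. Its bait (chr6:52162863-52166906) listed 41 and 49 pairs in PA2, 47 and 60 in E12.5 pinna and 23 and 31 in E14.5 pinna, and the difference of PA2 and E12.5 pinna did not pass the test (log2 difference 0.01 ± 0.28, SE, adjusted p = 0.989). It had 11 gained, 5 lost and 21 kept pairs. The gained pairs reached 0.964 to 1.49 Mb from the promoter, and 7 of them lay between 50675578 and 50822810 of chromosome 6, with scores of 5.53 to 22.3 and none in any E10.5 library. The lost pairs lay between 50954109 and 51083086, with scores of 5.30 to 10.9 in PA2, and 3 of them were also listed in the knockout libraries. E14.5 pinna listed 1 and 3 of the gained pairs and none of the lost.

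Gene lists are described by their gained and lost pairs beside those of all baits, 2.74% and 3.65%. The list of dermal and connective tissue fibroblast genes had 103 gained pairs (10.2% of its 1005) and 38 lost (3.78%), with gained pairs at 22 of 31 baits. Of its 656 pairs in the pair fit, 22 were called higher in E12.5 pinna (3.35%) and 1 in PA2 (0.152%). Over all pairs in that fit the shares were 0.656% and 0.696%. These calls rest on scores of 0 for unlisted pairs and are no test of the list. Without its leading bait, Twist2, it had 85 gained pairs. Col6a1, a chain of collagen VI, had 12 gained pairs and none lost and listed 13 and 7 pairs in PA2 and 35 and 24 in E12.5 pinna. Tbx18 and Osr1, T-box and zinc finger factors of mesenchyme, had 8 and 5 gained and 4 and 6 lost. Of 31 baits 1, Twist2, passed the test, and the median log2 difference was 0.38 against -0.02 over all baits. In the other lists the median was between -0.51 and -0.06.

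The signalling lists also had more gained than lost pairs, with few baits past the test. Without its leading bait the BMP list had 31 gained pairs and the FGF list 27. The retinoic acid and Hedgehog list then had 28, fewer than the 33 lost pairs of all its baits. WNT genes had 86 gained (7.89%) and 36 lost (3.30%), and 54 gained without Wnt11; of 37 baits tested, 1 rose. Axin2, a feedback inhibitor of WNT signalling, had 11 gained and none lost, with 15 and 15 pairs in PA2 and 33 and 34 in E12.5 pinna. BMP genes had 47 gained (6.64%) and 27 lost (3.81%). The receptor gene Bmpr1b had 16 gained and 1 lost and went from 25 and 22 pairs to 52 and 53, and the antagonist Grem1 had 9 gained and none lost and went from 6 and 7 to 22 and 26. Neither passed over all distances (adjusted p = 0.237 and 0.0961), and both did within 2 Mb (0.0400 and 0.0468). In the FGF list, with 35 gained (5.49%) and 26 lost (4.08%), Fgf10 had 8 gained and none lost at its main bait. A second Fgf10 bait (chr13:118667963-118671149) had none gained or lost, with 3 and 3 pairs in PA2 and 9 and 4 in E12.5 pinna. Fgfr1 had 7 gained and none lost. The retinoic acid and Hedgehog list had 38 gained (4.28%) and 33 lost (3.72%). Cyp26b1, which degrades retinoic acid, had 10 gained and 2 lost pairs, and Boc, a Hedgehog co-receptor, had 10 and none.

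The patterning and skeletal lists held more lost than gained pairs, except the list of HOX genes and cofactors. All baits together did so too, with 2.74% gained and 3.65% lost. The list of arch dorsoventral patterning had 46 gained (3.94%) and 83 lost (7.11%), and 2 of its 28 baits fell, Dlx1 and Foxf1. Foxf1, a forkhead gene named after its values were seen, went from 9 and 18 to 3 and 5 pairs, and did not pass once libraries were freed of their GC trend (adjusted p = 0.115). Dlx1 is a homeobox gene of the arches. Its bait listed 33 and 38 pairs in PA2, 10 and 10 in E12.5 pinna and 12 and 13 in E14.5 pinna. It had 16 lost pairs (log2 difference -1.95 ± 0.37, SE, limma adjusted p = 0.0146). Its neighbour Dlx2 had 11 lost pairs and went from 49 and 38 to 18 and 24 (limma adjusted p = 0.120). FNP, Mx and Md listed 9 to 21 pairs of the Dlx1 bait and 13 to 25 of the Dlx2 bait. The knockout libraries listed 51 and 39 pairs of Dlx1 and 45 and 59 of Dlx2. Dlx1 lost its call without either PA2 library or pinna replicate 2 (adjusted p = 0.116 to 0.172). The ear list had 65 gained (5.12%) and 78 lost (6.14%), and 1 of 31 baits fell, Six4, a homeobox gene, from 32 and 28 to 14 and 10 pairs (adjusted p = 0.0499, and 0.214 to 0.334 without either PA2 library or pinna replicate 2). HOX genes and cofactors had 64 gained (6.96%) and 57 lost (6.20%), of which Meis1 had 14 gained and Hoxc4 and Pknox2 12 lost each. Neural crest genes had 52 gained (4.56%) and 72 lost (6.32%), with 14 lost at Zic2 and 10 gained at Ets1. Cartilage genes had 36 (3.93%) and 47 (5.13%), with 12 gained at Hapln1 and 11 lost at Foxc2. Bone genes had 11 (2.40%) and 29 (6.33%), with 6 lost at Col1a2.

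Lists of other cells that a sort could hold were counted in the same way. Epithelial genes had 13 gained (3.85%) and 20 lost pairs (5.92%), and muscle genes 10 and 10 (3.45% each). Endothelial and blood genes had 4 (0.864%) and 22 (4.75%), and glial, neuronal and pigment genes 13 (2.78%) and 21 (4.50%). The gained share of 3 of these 4 lists was above the 2.74% of all baits. No bait of these 4 lists passed the test, among 64 tested. Housekeeping genes had 8 gained (1.03%) and 41 lost (5.28%), with 1 of 26 baits, Gapdh, past the test and 8 lost pairs at Polr2a. When E12.5 pinna replicate 2 was left out, gained pairs were 26.0% in the dermal list, 25.6% in the WNT list and 16.0% in the housekeeping list, against 21.6% over all baits. Without replicate 1 the order was turned, at 28.8% in the dermal and WNT lists, 31.9% in the housekeeping list and 34.7% over all baits. Without PA2 replicate 1 or 2 gained pairs were 15.6% or 15.5% in the dermal list, against 5.05% or 5.21%. No difference between lists was tested.

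**Figure D5:**
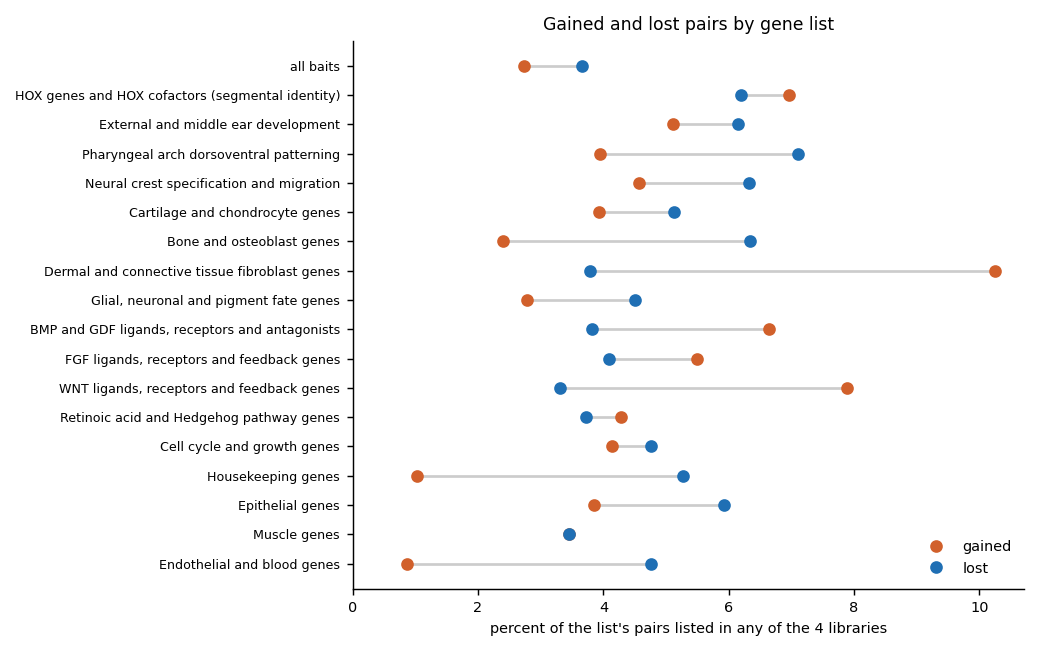
Gained (orange) and lost (blue) pairs of each gene list as a percentage of the pairs of the list that any of the 4 libraries listed (horizontal axis). Over all baits the values are 2.74% and 3.65%. The dermal and connective tissue list reaches 10.2% gained, the WNT list 7.89%, and the endothelial and blood list 0.864%.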

How the data were processed

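PCHi-C was measured in 14 libraries, 2 of each of 7 groups. According to the methods and the labels, alignment to GRCm38/mm10 was done in HiCUP and scoring in CHiCAGO. Each deposited table of a library gives the bait, the other HindIII fragment and the score, and no score is below 5. The labels name bcl2fastq 2.17. No read counts or depths are given, so that no counting interval can be given. Different-chromosome pairs were left out, unlisted pairs got a score of 0, and all 309454 fragments began and ended at HindIII sites of RefSeq GRCm38.p6. Of 22159 baits, 21614 held a GENCODE vM21 start site.

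Scores (asinh) and bait contact numbers (log2 of the number plus 1, each library centred) were fitted with limma 3.58.1 (lmFit, eBayes with trend) in R 4.3.3 as 7 group means, with Benjamini-Hochberg adjustment over all pairs listed in at least 4 libraries or all baits with a mean of at least 1 pair. Because 2 libraries a group are called biological replicates in the methods, p-values measure the spread between such libraries. The fits were tested on simulated data. The bait fit called few unchanged baits and missed most changed baits, small and large shifts alike; the pair fit called more unchanged than changed pairs, so its adjusted p-values do not hold as error rates. Same-numbered libraries of the 2 stages did not deviate together (r = 0.00545), so the numbers were not taken as pairs.

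Named genes are those at the baits of the 10 largest called pair differences in each direction, of the 5 largest called bait differences in each direction, of the 5 baits with most gained and with most lost pairs, Hoxa2, and up to 4 genes a list; others are said to be chosen after their values were seen. Members and lists were chosen with earlier results of these data known. Python 3.11.15, pandas 2.3.3 and matplotlib 3.10.9 were used.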

Additional observations from a re-analysis of the deposited data

Results flagged for a closer look

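Data outside the comparison stood out in 1 library. Of the pairs listed in E12.5 pinna replicate 2, 62.7% joined different chromosomes, that is 313508 of 499756, against 3.04% and 3.35% in the PA2 libraries and 2.69% in E12.5 pinna replicate 1. Md replicate 1, the other library whose name says that it was merged, had 46.5%. These pairs were not compared between the stages, and the cause was not tested.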

How the results depend on the processing

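With 2 libraries a group and no read counts, precision is limited and depth could not be weighed. The number of pairs past the test was 2150. It was 5099 with pairs listed in at least 2 libraries, 24910 with only the 4 libraries compared, 4 with unlisted pairs set to 5, 3 without asinh, 545 with scores below 10 set to 0, and 701 to 2284 when 1 library was left out. The 103 baits became 177 within 2 Mb, 0 with only the 4 libraries (limma, 1528 at an unadjusted p under 0.05) and 15 to 382 when 1 library was left out. With the replicate number as a block, 372 pairs and 128 baits passed, all 103 baits among these. Gained pairs numbered 6679 with equal numbers of top-scoring pairs a library, 1763 with scores of 10 or more, 218 with 10 or more in 1 stage and no listing in the other, and 16836 to 116608 when 1 library was left out. Lost pairs numbered 2154, 231 and 21981 to 70371 under the last 3 of these. The difference between E14.5 pinna and the other E10.5 libraries was 16.0 to 44.1 points when 1 library was left out. Without E14.5 pinna replicate 1 or 2 it was 44.1 or 34.3 points, with an exact permutation p of 0.111, the smallest that 9 groupings allow. The Hoxa2 bait difference was -0.00336 without a filter on baits -0.104 without PA2 replicate 1, and between -0.110 and 0.140 over the 4 cases with 1 library left out. Of the other values of single baits under alternatives, 288 kept direction and side of the threshold, 95 lost the call and 7 gained it; of single pairs, 132 kept both and 94 lost the call. Pairs listed in the 4 pinna libraries alone were not tested without an E12.5 pinna library, since they then missed the filter on listing. The GC correction, the classes of distance and the removal of single libraries from the choice of pairs were chosen after seeing the data. The cause of these changes was not tested.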

Other observations

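Several of the baits past the test lay near genes that the report does not describe. The bait of Gm17088, 59.8 kb from the start site of the transcription factor gene Etv6, listed 0 and 1 pairs in PA2 and 8 and 15 in E12.5 pinna, and that of Dnmt3a, a DNA methyltransferase, 0 and 1 against 11 and 11. Mbnl2, a splicing regulator, went from 0 and 3 to 14 and 21 pairs, with 12 gained pairs and none lost. The bait of Gm22616, 48.8 kb from the start site of Eya1, a gene of ear and arch development, fell from 12 and 16 pairs to 3 and 5, and the Eya1 bait itself listed 24 and 21 pairs in PA2 and 9 and 14 in E12.5 pinna (adjusted p = 0.102, and 0.0417 within 2 Mb). Hoxc10/Hoxc5 fell from 60 and 71 to 33 and 9, with 33 and 54 in E14.5 pinna.

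The long contacts within the Hist1 histone gene region of chromosome 13, over 0.5 Mb or more, did not share the pattern of the Rnu loci. They numbered 912 and 931 in PA2, 895 and 1080 in E12.5 pinna and 1202 and 1415 in E14.5 pinna. These genes and this region were chosen after their values were seen.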
